A study of Mus musculus with 122 samples.

Results

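The sites described here are FLAG ChIP-seq sites of the chimeric protein LCL that lie outside every site of CTCF and CTCFL, its parent proteins. They were chosen by the peak lists themselves: a site is a region with a peak in both replicates, and 4524 of the 34698 LCL sites found in cells given IAA with Dox (13.04%) had no base in common with a site of either parent in either treatment. Of the other LCL ID sites, 10051 overlapped a site of CTCF only, 2500 a site of CTCFL only and 17623 sites of both parents. Since the peaks chose the members, their number and strength are a description with no test.

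All samples came from E14Tg2a mouse embryonic stem cells grown in serum-containing medium with LIF and the 2i inhibitors. In every line, untreated controls included, both Ctcf alleles carried an auxin-inducible degron with eGFP and Rosa26 expressed the ubiquitin ligase Tir1, so that the auxin IAA degraded endogenous CTCF. A doxycycline-inducible transgene, with 3× FLAG at the N terminus and mRuby2 at the C terminus, was homozygous at Tigre, and each line was grown from a single colony. The transgenes were CTCF, CTCFL, LCL (CTCF zinc fingers between the CTCFL N and C termini), CLC (CTCFL zinc fingers between the CTCF termini), CLL (CTCF N terminus, CTCFL zinc fingers and C terminus) and LLC (CTCFL N terminus and zinc fingers, CTCF C terminus). Treatments were none (U), IAA alone (I), Dox alone (D) and both together (ID), with 2 replicates per group in the ChIP-seq and in the RNA-seq of the LCL line. The labels give 24 h of treatment for these groups and 48 h for CLL, LLC and the mock and RNase samples, whereas the growth protocol gives 2 days. For Hi-C of the LCL line the labels also give 24 h, whereas the growth protocol gives 4 days. Nothing says that replicates were separate cultures, so differences are measured against a spread that may be technical.

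CTCF is a zinc finger protein that is present in nearly all cells, binds a long motif through its central fingers and, with its N terminus, holds the cohesin ring at domain boundaries and loop anchors. CTCFL (BORIS) is its paralog of the male germ line and of many tumours, has nearly the same fingers but unrelated termini, and is known to bind open, CpG-rich promoters beside CTCF motifs. LCL therefore carries the CTCF DNA binding domain within the termini of CTCFL. ChIP with the FLAG antibody sees this protein and not endogenous CTCF.

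The word "neither" holds for sites in both replicates but not for single libraries. At 3234 of the 4524 sites, at least 1 of the 8 parent libraries listed a peak, and 1290 (28.5%) had none. Replicate 2 of CTCF D, with 55408 merged peaks against 41222 in replicate 1, had a peak at 2580 of the sites (57.0%), and replicate 1 at 52 (1.15%). Replicate 1 of CTCFL D, with 38928 merged peaks against 24033, had one at 1220 (27.0%), and replicate 2 at 49 (1.08%). In CTCF ID the replicates had peaks at 516 and 11 of the sites, and in CTCFL ID at 176 and 233. These parent peaks were lower than those at the other LCL ID sites. The median -log10 q (the MACS score of a peak against its background) of the CTCF D replicate 2 peaks was 6.72 at these sites and 28.9 at the other LCL ID sites. For CTCFL D replicate 1 the medians were 5.25 and 15.3. The LCL ID peaks themselves were of like value, with medians of 6.26 and 6.47 in the 2 replicates over all 4524 sites. The highest CTCF D replicate 2 peak at the sites had a -log10 q of 35.7. The sites are accordingly called LCL ID sites outside every parent site, and not LCL-specific sites.

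**Figure D1:**
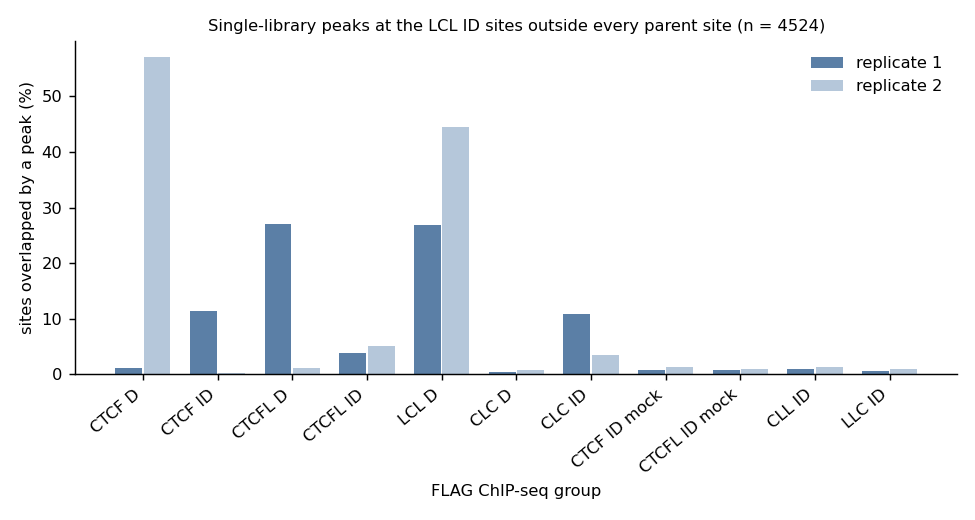
Share of the 4524 LCL ID sites outside every parent site (vertical axis, percent) that each single FLAG library overlaps with a peak, by group (horizontal axis) and replicate (dark and light bars). Replicate 2 of CTCF D stands at 57.0% and replicate 1 of CTCFL D at 27.0%, beside 26.8% and 44.5% for the replicates of LCL D and low values for CLC D, CLL ID, LLC ID and the mock samples.

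The number of sites rests on which parent library is asked. With replicate 2 of CTCF D standing alone for that group (replicate 1 left out) 1945 sites remained outside the parents, and with replicate 1 alone 4740. Leaving out replicate 2 of CTCFL D gave 3307 sites. At the edge of the rule, 215 of the 4524 had a parent site within 100 bp and 1276 within 1 kb, while 76 of the other LCL ID sites touched a parent site by at most 100 bp. The median mean -log10 q was 6.43 just outside the parents, within 100 bp, and 5.82 just inside. The median distance to the nearest parent site was 7118 bp. At the peak threshold, 483 of the sites (10.7%) had a -log10 q under 3 in their weaker replicate, compared with 2.17% of the other LCL ID sites, and 2559 and 3265 further LCL ID peaks outside the parents were listed in replicate 1 or in replicate 2 alone.

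Sequence is shown for the 4 strongest sites, for the strongest promoter sites without a match to a CTCF matrix and for the strongest sites with one, to show what LCL peaks hold where the parents have no site. Each is the summit of the stronger LCL ID replicate with 50 bases on either side, GRCm38, plus strand, and capitals mark the match. The windows lie at chr11:85140098-85140198 (promoter of Usp32), chr3:10249061-10249161 (intron of Fabp12), chr5:135629096-135629196 (between genes, nearest start Rhbdd2), chr19:46524948-46525048 (between genes, nearest start Trim8), chr8:20121696-20121796 (promoter of the pseudogene Gm21769), chr2:161109331-161109431 (promoter of the antisense gene Gm45447), chr11:3649110-3649210 (promoter of Morc2a) and chr13:62964788-62964888 (between genes, nearest start Gm48812).
Usp32: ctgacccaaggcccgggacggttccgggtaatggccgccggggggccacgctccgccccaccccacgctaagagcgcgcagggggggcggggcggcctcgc
Fabp12: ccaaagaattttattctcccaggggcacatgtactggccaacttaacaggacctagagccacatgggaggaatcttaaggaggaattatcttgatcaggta
Rhbdd2: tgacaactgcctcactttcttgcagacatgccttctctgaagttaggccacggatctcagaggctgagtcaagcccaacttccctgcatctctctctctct
Trim8: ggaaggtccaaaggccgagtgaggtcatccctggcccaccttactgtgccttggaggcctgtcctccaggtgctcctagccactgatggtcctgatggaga
Gm21769: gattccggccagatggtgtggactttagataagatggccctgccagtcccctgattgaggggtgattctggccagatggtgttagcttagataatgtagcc
Gm45447: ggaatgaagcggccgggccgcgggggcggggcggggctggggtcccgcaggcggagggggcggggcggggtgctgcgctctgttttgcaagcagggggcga
Morc2a: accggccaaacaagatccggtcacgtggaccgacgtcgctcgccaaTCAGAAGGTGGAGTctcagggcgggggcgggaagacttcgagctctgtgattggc
Gm48812: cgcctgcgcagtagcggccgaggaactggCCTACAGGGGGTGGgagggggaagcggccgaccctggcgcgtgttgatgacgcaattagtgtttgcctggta
The promoter windows of Usp32 and Gm45447 are both 79.2% G and C, with 13 and 12 CpG pairs, and both hold the letters of a GC box, GGGGCGG. The Fabp12 window is 44.6% G and C with 0 CpG pairs, and that of Rhbdd2 ends in a CT repeat.

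The sites were the weakest of the LCL ID sites. In replicate 1 their -log10 q ran from 2.00 to 41.2, with a median of 6.26 and quartiles of 4.55 and 8.995, and in replicate 2 it ran from 2.00 to 37.2, with a median of 6.47 and quartiles of 4.64 and 9.28. Sites of CTCF only had medians of 11.2 and 11.3, sites of CTCFL only 7.83 and 8.22, and sites of both parents 27.5 and 27.1. In each of these classes the 2 replicates lay closer to each other than the classes did. The median fold enrichment over the local background was 3.86 and 3.87 in the 2 replicates. It was 4.28 and 4.31 at CTCFL only sites, 4.90 and 4.84 at CTCF only sites, and 5.89 and 5.70 at sites of both parents. The sites were also narrower, with a median width of 464 bp against 648.5 bp for CTCFL only, 664 bp for CTCF only and 1094 bp for both parents. The order of strength was less alike between replicates, with a Spearman rho of 0.548 across the 4524 sites. It was 0.692 for CTCFL only, 0.838 for CTCF only and 0.952 for both parents. These are correlations across sites of the same 2 libraries, in classes that differ in their range of -log10 q, given as a description.

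**Figure D2:**
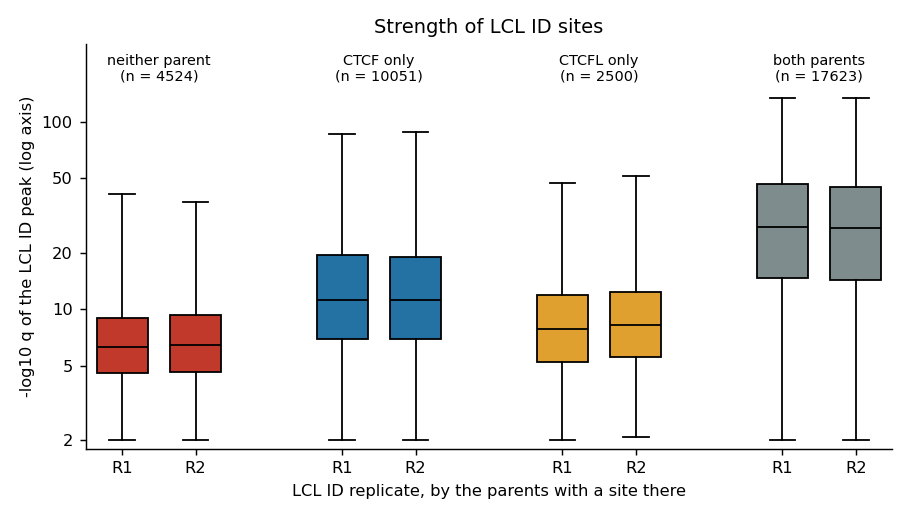
Strength of the LCL ID sites as the -log10 q of their peak (vertical axis, log scale) in replicates R1 and R2, for sites outside every parent site (neither parent), with a site of CTCF only, of CTCFL only and of both parents. Boxes span the quartiles with the median, and whiskers the whole range; medians are 6.26 and 6.47 outside the parents and 27.5 and 27.1 at sites of both.

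By mean -log10 q, 1234 of the sites lay between 2 and 5, 2449 between 5 and 10, 772 between 10 and 20, and 69 at 20 or more. They made up 41.5% of all LCL ID sites in the lowest of these bands and 0.502% in the highest. All 69 sites of the highest band had a peak in at least 1 parent library. The 1290 sites with no peak in any parent library had a median mean -log10 q of 5.46, the 1965 with 1 such library 6.38, the 977 with 2 libraries 7.42, the 250 with 3 libraries 8.81 and the 42 with 4 libraries 9.55.

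The strongest site lay at the promoter of Usp32 (ENSMUSG00000000804), a ubiquitin-specific protease, on chromosome 11 from 85139545 to 85140667. Its -log10 q was 37.3 and 37.2 in the LCL ID replicates and 17.2 and 16.5 in those of LCL D, and its only parent peak was in CTCF D replicate 2. It lay 28828 bp from the nearest parent site. The next lay in an intron of Fabp12, a fatty acid binding protein, with 35.2 and 36.1 in LCL ID. The third lay between genes 3210 bp from a start of Rhbdd2, a rhomboid-like protein, with 33.8 and 32.98, and the fourth 23066 bp from a start of Trim8, a ubiquitin ligase, with 32.4 and 36.05. The Fabp12 site was 41 bp and the Rhbdd2 site 154 bp from a parent site, and both were also sites of CTCF in the 48 h mock samples. Of the 10 strongest, 4 had a parent site within 200 bp. The other strongest sites lay in introns of Gsta1 (41.2 and 31.9), Gm3776 (32.9 and 31.8) and Tnfrsf11a (31.2 and 31.7), near Rny3 (31.75 and 31.9998), and at the promoters of Gm21769 (30.8 and 29.2) and Gm45447 (28.9 and 30.02). Gsta1 and Gm3776 are neighbouring glutathione S-transferase genes, and their sites on chromosome 9, at 78233669 and at 78260123, lie in copies of one gene family.

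Among promoters, the site of Morc2a, an ATPase of gene silencing, had a -log10 q of 27.7 and 33.6. It was followed by D630045J12Rik with 30.01 and 26.97, by Lss, the lanosterol synthase of cholesterol synthesis, with 29.1 and 26.3, and by Dcp1b, an mRNA decapping protein, with 26.2 and 29.5. Adsl, an enzyme of purine synthesis, had 25.9 and 27.2, the pseudogene Pisd-ps1 25.7 and 27.5, and the antisense gene Gm15247 28.03 and 23.9. In fold enrichment the Adsl site had only 3.82 and 3.74 and the Pisd-ps1 site 3.38 and 3.35. These lie under the medians of all 4524 sites, 3.86 and 3.87, while the other strongest promoter sites lie above them, with 7.68 and 7.65 at Usp32. The Morc2a, Lss and Dcp1b sites were 18616, 17010 and 43665 bp from the nearest parent site, whereas those of Adsl and Pisd-ps1 were 155 and 76 bp from one. All 10 of the strongest promoter sites had a peak in at least 1 parent library.

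With endogenous CTCF present, few of the sites were sites of LCL. Of the 4524, 23.1% overlapped an LCL D site, compared with 67.6% of the CTCF only sites, 40.4% of the CTCFL only sites and 90.2% of the sites of both parents. Replicate 1 of LCL D alone had a peak at 26.8% and replicate 2 at 44.5%, so that the spread between replicates was wide. The LCL D lists were also shorter, with 31672 and 39620 merged peaks against 41363 and 42362 in LCL ID. In RNA, Ctcfl, to whose termini the transgene adds reads, had 384 and 416 normalized counts in D and 1120 and 1225 in ID. The presence of CTCF, the amount of LCL and the length of the lists cannot be told apart here. The share rose with strength, from 8.59% between 2 and 5 to 19.0%, 53.6% and 84.1% in the bands above. In the same bands the CTCF only sites stood at 30.7%, 49.5%, 76.6% and 96.7%, and the CTCFL only sites at 12.1%, 27.1%, 67.3% and 98.1%. In each band the sites outside every parent site had the lowest share of the 4 classes. With 2 libraries against 2, an exact two-sided permutation test cannot go below p = 0.333, so no test was made between groups of ChIP-seq libraries, and sites of 1 library are not replicates.

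**Figure D3:**
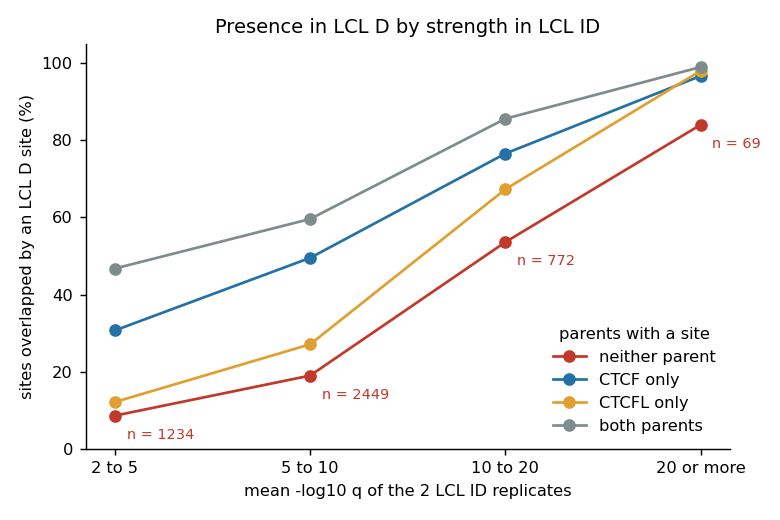
Share of LCL ID sites overlapped by an LCL D site (vertical axis, percent) against the band of mean -log10 q in LCL ID (horizontal axis), by the parents with a site there. The red line, with its number of sites per band, is the class outside every parent site and goes from 8.59% to 84.1%, below the other 3 lines in each band.

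Presence in LCL D is also given by the number of parent libraries with a peak. The rule used these same parent lists, and strength rose with that number, so the shares are a description with no test. Of the sites with no peak in any parent library 10.5% overlapped an LCL D site, and of those with 1, 2, 3 and 4 such libraries 21.7%, 35.7%, 44.8% and 47.6%. In the wide band of -log10 q between 5 and 10 the share was 10.6% without and 22.2% with a parent peak. Between 10 and 20 it was 38.4% and 55.9%. The 1043 sites present in LCL D had a median -log10 q of 9.32 and 9.39 in the LCL ID replicates, and the 3481 absent from it 5.71 and 5.996. In the LCL D replicates the medians were 5.46 and 7.26, over the 990 of the 1043 that a peak of each replicate touched; the other 53 touched the merged LCL D site only beyond the peak of one replicate. Of the 10 strongest sites 9 were LCL D sites, the exception being the Gm3776 site, with a peak in LCL D replicate 1 only.

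The other chimeras had few sites there. CLC ID sites overlapped 143 of the 4524 (3.16%), with peaks at 487 in replicate 1 and 155 in replicate 2. CLC ID sites overlapped 4.66% of the CTCF only sites, 30.8% of the CTCFL only sites and 79.2% of the sites of both parents. CLL ID sites overlapped 21 of the members (0.464%) and LLC ID sites 19 (0.42%). In the 48 h mock samples, CTCF ID sites overlapped 27 (0.597%) and CTCFL ID sites 25 (0.553%). These 48 h lists are shorter than the 24 h lists and their times differ, so the values stand side by side with no comparison.

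Promoters held 1974 of the sites (43.6%), counting a site whose middle is within 3 kb of a start in the GENCODE vM21 basic annotation. Exons held 174, introns 1186 and the space between genes 1190. The promoter share was between those of the parent classes: 19.9% of CTCF only sites, 28.2% of sites of both parents and 72% of CTCFL only sites were at promoters. Within 1 kb of a start lay 33.6% of the sites, compared with 8.38%, 17.0% and 63.6%. With peaks of LCL ID replicate 2 or replicate 1 alone the promoter share was 49.3% or 34.7%, with replicate 2 of CTCF D alone for its group it was 53.4%, and without replicate 2 of CTCFL D it was 36.3%. Sites with and without a peak in a parent library were alike in place, at 42.8% and 45.7% promoters, and so were the 1043 sites in LCL D and the 3481 absent from it, at 44.5% and 43.4%. The median -log10 q of promoter sites was 6.26 and 6.68 in the 2 replicates, and that of other sites 6.23 and 6.34. The share did not follow strength, being 42.9%, 42.1%, 49.6% and 43.5% in the 4 bands from weak to strong, while in the CTCFL only class it went from 65.3% to 87.1%.

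**Figure D4:**
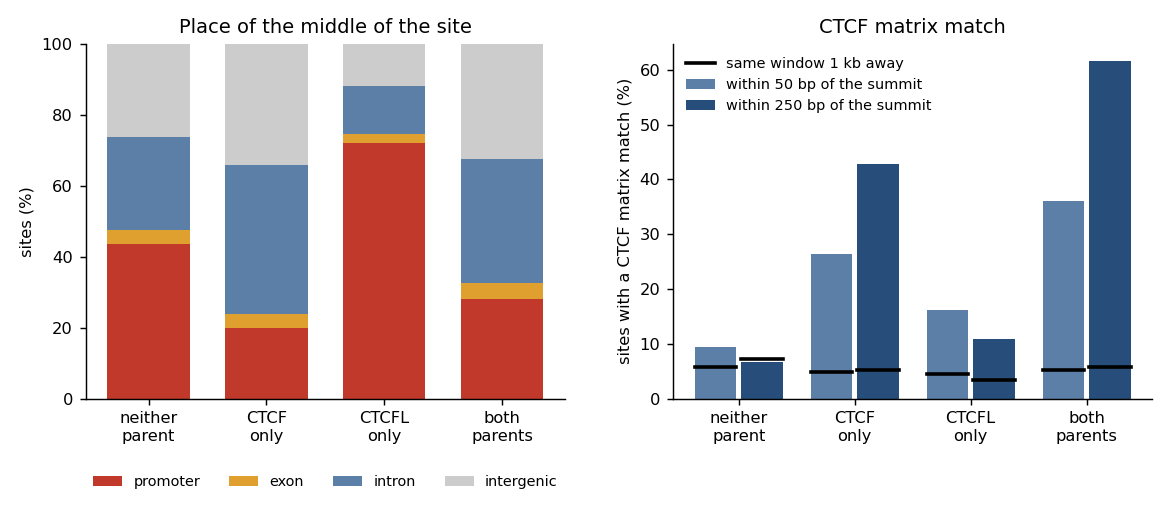
Left, place of the middle of LCL ID sites (percent of sites) by the parents with a site there: 43.6% of the sites outside every parent site are at promoters, compared with 19.9%, 72% and 28.2%. Right, share of sites with a CTCF matrix match (percent) within 50 bp (light bars) and 250 bp (dark bars) of the summit, with black lines for the same window 1 kb away; bars and lines lie close together outside the parents.

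In base composition the sites were also between the parent classes. The median of G and C in the 250 bp on either side of the summit was 51.9%, compared with 46.7% for CTCF only and 59.9% for CTCFL only. The ratio of observed to expected CpG was 0.293, and it was above 0.6 at 24.4% of the sites, 3.502% of CTCF only and 53.5% of CTCFL only sites. Promoter and other members differed among themselves, with CpG ratios of 0.610 and 0.216. Repeats masked a median of 11.2% of the window, and most of it at 10.7% of the sites.

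Matches to a CTCF matrix were rare. The matrix of 14 positions, trained on the 30317 CTCF ID sites, matched within 50 bp of the summit at 422 of the sites (9.33%) and in 5.75% of the windows 1 kb away from them. The matrix is strict: it matched 59.6% of its own training sites, and 63.5% with 250 bp on either side. A site without a match may therefore still hold a weaker motif. It matched 26.3% of CTCF only sites, 16.1% of CTCFL only sites and 36.03% of sites of both parents, and the windows 1 kb away from these held 4.78%, 4.54% and 5.25%. With 250 bp on either side the sites stood at 6.70%, against 7.25% for windows 1 kb away, and CTCF only sites at 42.8%. The score that makes a match was set, for each window length, so that 5% of windows 1 kb from the CTCF ID sites pass, and sites with CTCF partly coincide with the training sites, so their shares are a reference and no result. Matches were as rare when the sites were split into 4 by strength, from 7.60% in the strongest 1131 to 10.4% in the second weakest 1131, and with (9.40%) or without (9.15%) a peak in a parent library. None of the 10 strongest sites had a match, and Morc2a was the only one of the 10 strongest promoter sites with one. A match, or its absence, in such a window says nothing of which protein bound there.

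Short words were searched on both strands of the 50 bp on either side of the summit, and where words overlap both count. The core letters of the CTCF motif, AGGNGGC, were in 11.5% of the sites and 6.70% of the windows 1 kb away, and in 10.9% of CTCF only, 20.2% of CTCFL only and 22.5% of both-parent sites. By these letters the sites stood near the CTCF only sites, which have a lower median of G and C. At promoters the letters were in 14.4% of the members and 20.5% of the other LCL ID sites. Away from promoters they were in 9.14% of the members and 17.6% of the other LCL ID sites. The GC box GGGGCGG was in 5.04% of the sites and 1.81% of the windows away. It was in 1.14% of CTCF only, 11% of CTCFL only and 2.86% of both-parent sites. At promoters it was in 9.07% of the members and 7.34% of the other LCL ID sites. The ETS word CCGGAAG was in 1.46% of the sites and 0.608% of the windows away, the E-box CACGTG in 2.79% and 1.20%, and the NRF1 word GCGCATGC in 0.553% and 0.210%. The NFY word GATTGGC was in 1.17% and 0.818%, and the CRE TGACGTCA in 0.133% and 0.0442%. The YY1 word AAGATGGC was in 0.597% and 0.729%, the AP-1 word TGANTCA in 2.90% and 2.74%, the octamer ATGCAAAT in 0.420% and 0.531%, and the SOX word CATTGTT in 1.13% and 1.35%. Repeats of CA (CACACACA) were in 5.04% and 3.90%, and of GA (GAGAGAGA) in 1.24% and 1.99%. No one word was in more than 11.5% of the sites.

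The sites were spread over the genome. They were between 10.3% of the LCL ID sites of chromosome 9 and 17.5% of those of the X, with 16.2% on chromosomes 6 and 19. The median distance to another of the sites was 78250 bp, and 554 of them (12.2%) had another within 10 kb, whereas 53.6% had any other LCL ID site within 10 kb.

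RAD21, the cohesin subunit that marks where the ring is held, was seldom listed at any LCL ID site in ID. A RAD21 site of LCL ID, in both replicates, overlapped 4 of the 4524 (0.0884%), and the replicates alone 41 (0.906%) and 4. Replicate 2 listed 163 RAD21 peaks in all, and 117 RAD21 sites were in both replicates. In the other classes these sites overlapped 5 of the CTCF only sites (0.0497%) and 2 of the CTCFL only sites (0.08%). At sites of both parents they overlapped 53 (0.301%), and so short a list allows no comparison. RAD21 peaks of LCL ID replicate 1 covered 1.403% of CTCF only sites, 1.24% of CTCFL only sites and 8.87% of sites of both parents. In LCL D, replicate 1 listed RAD21 at 16 of the sites and replicate 2 at 379 (8.38%), of which 227 were promoters. The replicates covered 4.54% and 16.4% of CTCF only sites, and 0.44% and 16.3% of CTCFL only sites. At sites of both parents they covered 9.23% and 36.2%. The RAD21 lists differ so much in length between replicates that one library sets each of these shares.

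The promoters belonged to 2476 genes, of which 1735 were protein-coding. That is 7.98% of the 21755 protein-coding genes, while 29.3% had another LCL ID site at a promoter. Of the 2476 genes 564 held both kinds of site, and 126 held 2 or more of the sites outside the parents. The RNA table lists 2319 of them, 67.4% with a mean of at least 10 normalized counts in LCL ID, compared with 28.8% of all 52459 genes. Of other genes with an LCL ID site at a promoter, 70.9% reached that mean at CTCFL only sites, 58.6% at sites of both parents and 48.5% at CTCF only sites. Normalized counts are not per length, so these shares are of detection and not of level.

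Replication-dependent histone genes, whose products package DNA in S phase, had such a site at 19 of 67 promoters and another LCL ID site at 21. The 19 genes share 9 sites, because their promoters lie side by side. One site on chromosome 13 from 23574133 to 23574489, with a -log10 q of 10.1 and 5.29, serves Hist1h2ad, Hist1h2bf, Hist1h2bg and Hist1h3d, and one from 96220747 to 96221482 on chromosome 3, with 5.02 and 4.49, serves Hist2h2ab, Hist2h2ac and Hist2h2be. Ribosomal protein genes had one at 6 of 79 promoters (Rpl10, Rpl10l, Rpl7, Rps15, Rps24 and Rps29) and another LCL ID site at 33. Cohesin genes had one at 3 of 14: Smc3, a core subunit, Stag2, a subunit of the ring, and Cdca5 (sororin), which guards it. Germline and cancer-testis genes had one at 3 of 30 (Rpl10l, Stag3 and Tdrd1), stem cell regulators at 2 of 24 (Sall4 and Stat3), immediate early and stress genes at 1 of 15 (Klf6) and heat shock chaperones at 1 of 12 (Dnajb1). None of 19 lineage regulators had one, whereas 10 of them had another LCL ID site. The lists were made with earlier results of these data known, and no test was made on them.

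RNA-seq of the LCL line asks whether these genes differ when LCL is induced with CTCF present (U versus D) or without it (I versus ID), and when CTCF is lost without LCL (U versus I). The 8 libraries held between 20497827 and 49716771 reads in genes, recovered from the deposited values. The read count of Ctcfl, to whose termini the LCL transgene adds reads, was 36.5 and 27.2 normalized counts in U, 33.8 and 23.5 in I, 384 and 416 in D, and 1120 and 1225 in ID, as the labels have it, whereas Ctcf, whose RNA the degron spares and whose zinc fingers the transgene carries, was between 6705 and 9309 in all 8 libraries. All 8 stem cell markers were present, with sums of 178257 to 233075. The 3 trophoblast markers summed to 33.07 and 33.95 in U, 94.9 and 142 in I, 59.6 and 64.5 in D, and 179 and 249 in ID, and the 3 fibroblast markers to between 225 and 242 in ID and between 376 and 707 elsewhere, with 0 of the listed markers at 0. Markers of endoderm (4 genes), mesoderm (3) and the neural lineage (3) summed to between 390 and 692, 28.3 and 84.1, and 142 and 257. Their part in the results below was not tested. In bulk RNA, fewer cells of a type and less RNA per cell cannot be told apart.

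Genes with a site at the promoter were called about as often as all genes. In U versus D, 37 of the 1563 tested were called (2.37%; past an adjusted p of 0.01 and a fold of 1 on the log2 scale, either way), beside 1.91% of all 15274 genes tested. Of the 1563, 18 were higher in D (1.15%, beside 1.00% of all genes) and 19 lower (1.22%, beside 0.903% of all genes). In I versus ID, 100 were called (6.40%), beside 8.49% of all genes, with 46 higher in ID (2.94%, beside 4.04% of all genes) and 54 lower (3.45%, beside 4.45% of all genes). In U versus I, 140 were called (8.96%), beside 9.58% of all genes, with 56 higher in I (3.58%, beside 4.25% of all genes) and 84 lower (5.37%, beside 5.34% of all genes). Since the shares are near those of all genes, the calls are no result about these promoters. The median log2 fold change of the 1563 genes was -0.00 in U versus D, -0.03 in I versus ID and -0.00 in U versus I, and that of all genes was 0.02, 0.00 and 0.01. Genes whose site was an LCL D site, of which 366 were tested, stood at 3.28% in U versus D and 6.01% in I versus ID, and the 467 genes of sites with no parent peak at 2.36% and 6.21%. For comparison, the 3027 genes with a site of both parents were called at 11.96% in I versus ID, 269 higher and 93 lower in ID. I versus ID and U versus I share the I libraries, and U versus D and U versus I the U libraries. The count in U versus D was 21 without U replicate 1, 24 without D replicate 1 and 19 without D replicate 2.

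The largest called difference was at Tspan6, a membrane tetraspanin. Its normalized counts were 145 and 133 in U, 6.99 and 9.71 in I, 135 and 155 in D, and 162 and 127 in ID. The I libraries stood alone below all others, and the other groups overlapped. Tspan6 was higher in ID than in I (log2 fold change 3.96, SE 0.28, adjusted p = 1.77e-09) and lower in I than in U (-3.92, SE 0.28, adjusted p = 1.7e-09), and D differed from U by 0.06 (SE 0.28, adjusted p = 0.917). Its site, on chromosome X from 133898033 to 133898493, 166 bp from the start, had a -log10 q of 6.26 and 7.07, was absent from LCL D and had a peak in 1 parent library.

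Cdh2, the adhesion protein N-cadherin, had 76.4 and 73.5 in U, 9.90 and 15.4 in I, 69.3 and 54.1 in D, and 57.1 and 77.7 in ID. It was higher in ID than in I (2.34, SE 0.36, adjusted p = 2.48e-05) and lower in I than in U (-2.51, SE 0.36, adjusted p = 1.21e-05). Its site was one of the weakest, with a -log10 q of 2.88 and 2.22 and no peak in a parent library. Fmc1, a factor for assembly of the mitochondrial ATP synthase, had 699 and 1030 in U, 376 and 420 in I, 1183 and 963 in D, and 1778 and 1500 in ID. It was higher in ID than in I (2.04, SE 0.15, adjusted p = 3.02e-09), the ID libraries above all others, and its promoter also held another LCL ID site. The libraries were made from poly(A)-selected RNA, and 15 of the 67 listed histone genes were tested, so histone counts may miss part of their RNA. Hist1h2af, a histone H2A gene, had 8.15 and 6.47 in I and 31.8 and 77.7 in ID, which differed (2.62, SE 0.51, adjusted p = 0.00029). Its replicates in ID were wide apart, without ID replicate 2 the adjusted p was 0.0133, and histone copies share reads, so its value is uncertain. Fgf13, an intracellular FGF of neurons, had 1.75 and 4.85 in I and 24.1 and 32.5 in ID (2.85, SE 0.64, adjusted p = 0.00105), a call lost without ID replicate 2 (adjusted p = 0.0138), and its promoter held another LCL ID site as well. Cdh20, another cadherin, had 6.99 and 5.66 in I and 38.3 and 38.1 in ID (2.43, SE 0.51, adjusted p = 0.000682).

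Hpn, the serine protease hepsin, was lowest in ID. It had 154 and 120 in U, 224 and 250 in I, 227 and 257 in D, and 31.2 and 43.8 in ID, and the ID libraries did not overlap any other group (I versus ID -2.64, SE 0.23, adjusted p = 2.27e-08). Tdrd1, a Tudor protein of the germline piRNA pathway, had 114 and 90.8 in U, 241 and 222 in I, 180 and 217 in D, and 50.6 and 33.9 in ID (I versus ID -2.45, SE 0.24, adjusted p = 1.35e-07). Tdrd1 was also higher in I than in U (1.18, SE 0.24, adjusted p = 0.000599). Its site, with a -log10 q of 7.51 and 17.8, lay 125 bp from the start.

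Plxna4, a semaphorin receptor, had 103 and 67.9 in U, 23.9 and 28.3 in I, 260 and 227 in D, and 11.8 and 1.41 in ID. It was lower in ID than in I (-2.28, SE 0.52, adjusted p = 0.00137), but without ID replicate 2 the difference was -1.08 with adjusted p = 0.0242, and without I replicate 2 the adjusted p was 0.012. The call was also lost without the filter on low values (adjusted p = 0.014) and with the 2 groups alone (adjusted p = 0.0259), and edgeR and DESeq2 on recovered reads kept it with smaller folds of -1.63 and -1.67. In D the difference of Plxna4 from U was 1.53 with adjusted p = 0.0422, short of a call. Gpc2, a glypican of the cell surface, had 40.8 and 58.2 in I and 4.71 and 14.1 in ID (-2.42, SE 0.49, adjusted p = 0.000483; without I replicate 2, adjusted p = 0.01002). It shares its site, on chromosome 5 from 138280239 to 138280598, with Stag3, the meiotic cohesin subunit. Stag3 had 3132 and 2948 in U, 2231 and 2143 in I, 2305 and 2435 in D, and 811 and 681 in ID (I versus ID -1.56, SE 0.10, adjusted p = 4.59e-10). Nrbp2, a pseudokinase, had 43.1 and 52.6 in I and 7.06 and 7.06 in ID (-2.59, SE 0.46, adjusted p = 0.000117). Matk, a kinase that phosphorylates Src family kinases, had 48.9 and 47.7 in I and 5.89 and 19.8 in ID (-2.04, SE 0.54, adjusted p = 0.00436), a call that was lost without I replicate 1, I replicate 2 or ID replicate 1 (adjusted p = 0.0259, 0.0248 and 0.0747) and without the filter on low values (adjusted p = 0.027). Cc2d2b had 11.7 and 8.90 in I and 1.18 and 0 in ID (-2.92, SE 0.79, adjusted p = 0.0051). Its call was lost without I replicate 1, I replicate 2, D replicate 1, D replicate 2 or ID replicate 2 (adjusted p between 0.0101 and 0.0313), with a pseudocount of 5 (-1.45, adjusted p = 0.0229), without the filter on low values (adjusted p = 0.0155), with the 2 groups alone (adjusted p = 0.0738) and in DESeq2 (adjusted p = 0.0118). The promoters of Nrbp2 and Cc2d2b also held another LCL ID site.

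With CTCF present, 2 of the named genes were called. Moxd1, a monooxygenase of the dopamine beta-hydroxylase family, had 27.4 and 30.3 in U, 132 and 112 in D, 33.8 and 67.9 in I, and 30.6 and 26.8 in ID. It was higher in D than in U (2.04, SE 0.36, adjusted p = 0.000495), and I and ID differed by -0.72 (SE 0.36, adjusted p = 0.114). Without D replicate 1 the call was lost (adjusted p = 0.0159). Its site was the strongest among the called genes, with a -log10 q of 30.99 and 18.5, was also an LCL D site and lay 109 bp from the start. Doc2b, a calcium sensor of vesicle release, had 5.70 and 1.23 in U, 27.6 and 37.5 in D, 58.2 and 46.1 in I, and 27.7 and 19.8 in ID (U versus D 3.10, SE 0.57, adjusted p = 0.000612), a call lost without D replicate 2 (adjusted p = 0.0209). Both of its U values were under 10 normalized counts, the mean that the filter asks for.

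**Figure D5:**
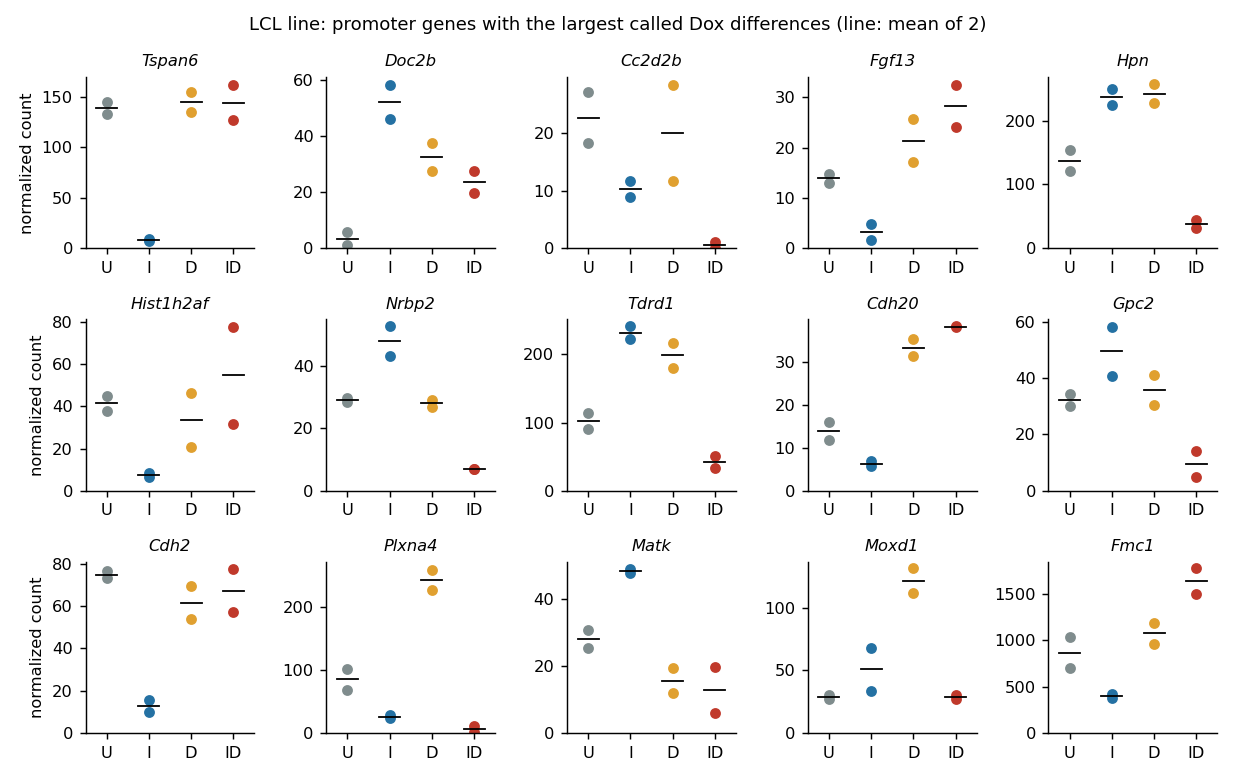
Normalized counts (vertical axes, linear from 0, own scale per gene) of the 15 genes with a site at the promoter and the largest called differences, in the U, I, D and ID libraries of the LCL line; points are libraries and lines means of 2. Tspan6 and Cdh2 are low in I alone, Hpn and Tdrd1 are lowest in ID, and Moxd1 is high in D alone.

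Those genes of the strongest promoter sites that were tested were not called. Gm21769, Gm45447 and Gm15247 fell under the filter on low values and were not tested. Usp32 had 2205 and 1844 in U, 1938 and 1894 in I, 1613 and 1646 in D, and 2093 and 2165 in ID, and I and ID differed by 0.15 (SE 0.10, adjusted p = 0.223). Morc2a had between 2993 and 3999, with an I versus ID difference of -0.10 (SE 0.09, adjusted p = 0.377), and Dcp1b between 198 and 320, with -0.26 (SE 0.17, adjusted p = 0.201). Lss had 2686 and 2690 in U, 1663 and 1583 in I, 2175 and 2476 in D, and 1535 and 1566 in ID, and I and ID differed by -0.07 (SE 0.09, adjusted p = 0.602). Between U and I, Lss differed by -0.73 (SE 0.09, adjusted p = 4.04e-06) and D630045J12Rik by 0.73 (SE 0.13, adjusted p = 0.000166), both short of the fold threshold. D630045J12Rik differed by 0.13 (SE 0.13, adjusted p = 0.438) between I and ID and Adsl by 0.30 (SE 0.11, adjusted p = 0.0281). Pisd-ps1 differed by -0.47 (SE 0.15, adjusted p = 0.0156) between I and ID. Neither it nor any of the 6 genes before it was called in U versus D, I versus ID or U versus I. A p above the threshold does not show that the values were alike.

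In the lists, few genes with a site were called. Of the 6 ribosomal protein genes 1 was called in I versus ID, Rps29, with 5271 and 5496 normalized counts in I and 11281 and 15595 in ID (1.30, SE 0.14, adjusted p = 2.82e-07), beside 4 higher and 1 lower of all 79. The median of the 6 was 0.54, and that of the 79 was 0.57. Of the 4 histone genes tested 2 were higher in ID, Hist1h2af and Hist1h1c, beside 3 of all 15 tested, in RNA selected for poly(A). Of the 3 germline genes with a site, Tdrd1 and Stag3 were lower in ID than in I, beside 20 of all 27 tested, so these genes did as their list did. The stem cell genes Sall4 (-0.55, SE 0.10, adjusted p = 0.000211) and Stat3 (-0.12, SE 0.08, adjusted p = 0.241) passed no fold threshold in I versus ID, and of the 24 in the list 1 was higher. Klf6, an immediate early factor, had 2851 and 2854 in I and 5701 and 5199 in ID (0.93, SE 0.09, adjusted p = 7.7e-08), just under the fold threshold, beside 4 higher of 14 in its list. Dnajb1, a co-chaperone, and the cohesin genes Smc3, Stag2 and Cdca5 were not called, nor was any of the 12 chaperones or 14 cohesin genes in I versus ID. In U versus D none of the listed genes with a site was called. In U versus I, 4 of them were: Tdrd1 and Rpl10l, a testis ribosomal protein gene (1.05, SE 0.10, adjusted p = 6.81e-08), were higher in I, beside 7 higher and 1 lower of the 27 germline genes, and Hist1h2af and Hist1h1c (-1.62, SE 0.32, adjusted p = 0.000399) were lower, beside 3 lower of the 15 histone genes.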

How the data were processed

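The authors aligned ChIP-seq reads to GRCm38/mm10 with Bowtie2, removed multi-mapping and duplicate reads, and ran MACS on every replicate. The deposited peak lists give a fold enrichment (a ratio over local background) and a -log10 q, both computed by the authors; the 24 h FLAG lists begin at a -log10 q of 2.00 and those of CLL and LLC, which begin at 1.30, were used from 2. The control library is not stated and the depth of ChIP libraries is unknown. Deposited Hi-C lists give other values, the positions of domain edges per caller. The RNA-seq signal values are gene counts that the authors aligned with STAR and divided by 1 size factor per library; 100% of values came out as whole reads in the 8 LCL libraries. The labels also name Trim Galore 0.4.4, SAMtools 1.3, HTSeq and deepTools.

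Peaks on chromosomes 1 to 19 and X were merged at 1 bp overlap, with no filter for artefact regions. LCL ID sites were set against the D and ID sites of CTCF and of CTCFL. Members, lists and tests were chosen with earlier results of these data known. limma was run on log2(normalized count + 1), version 3.58.1 (R 4.3.3; lmFit, eBayes with trend) over the 8 LCL libraries, without genes of a mean under 10; calls needed an adjusted p (Benjamini-Hochberg, over all genes) below 0.01 and a log2 difference beyond 1, and fold changes of low genes are understated. Named are the 10 strongest sites and the 10 strongest at promoters by the weaker replicate, up to 15 called promoter genes by size of change, and listed genes with a site. The matrix was started from AGGNGGC sites of CTCF ID and re-estimated for 10 rounds with 0.5 added to each count. Each round used only the windows that scored at or above the median. Alternatives were edgeR 4.0.16 and DESeq2 1.42.0 on recovered reads, a pseudocount of 5, other filters, TMM scaling, other site rules and each library left out; leaving out each parent library, all GENCODE transcripts and the -log10 q of 2 for CLL and LLC were chosen after seeing the data. Scripts were tested on simulated data. IgG samples and RNA-seq of other lines entered no test.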

Additional observations from a re-analysis of the deposited data

Results flagged for a closer look

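U versus D or I versus ID called 132 promoter genes, and the 15 with the largest changes are those named. For 11 of these 15 the effect of Dox differed between cells with and without CTCF. The test was a limma interaction of I versus ID against U versus D (adjusted p under 0.01 over all 15274 genes). The 15 were chosen because 1 of the 2 comparisons called them, which favours such a difference. Of all genes 3727 (24.4%) passed this test, and of the 1563 genes with a site at the promoter 430 (27.5%), so a difference is not particular to them. Dox also raised Ctcfl, to whose termini the LCL transgene adds reads, by 5.33 (log2) in I versus ID and by 3.62 in U versus D. The loss of CTCF and the amount of LCL therefore cannot be told apart in this test. Given as the log2 difference of the Dox effects, without CTCF minus with it, the values were 3.91 for Tspan6 (adjusted p = 4.43e-07), 3.01 for Hist1h2af (adjusted p = 0.00251), 2.63 for Cdh2 (adjusted p = 0.000422) and 1.71 for Fmc1 (adjusted p = 4.86e-06). They were -4.21 for Doc2b (adjusted p = 0.000387), -3.81 for Plxna4 (adjusted p = 0.000456), -3.47 for Hpn (adjusted p = 1.49e-07), -3.41 for Tdrd1 (adjusted p = 3.5e-07), -2.76 for Moxd1 (adjusted p = 0.000314), -2.55 for Gpc2 (adjusted p = 0.007) and -2.54 for Nrbp2 (adjusted p = 0.00423). For Cc2d2b, Fgf13, Cdh20 and Matk the difference did not pass (adjusted p = 0.0695, 0.0515, 0.208 and 0.234).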

How the results depend on the processing

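The promoter share ran from 33.6% with a 1 kb window to 53.4% without CTCF D replicate 1, slightly beyond the 34.7% and 49.3% that either LCL ID replicate alone gave. The number of sites was 1927 with equal numbers of top-ranked peaks per library, 1290 where a peak in any parent library counts as bound, and 9712 where only an overlap above 66% of both sites counts, and between 1945 and 5990 with a replicate left out. The median -log10 q was 8.89 with a -log10 q of at least 5, 14.3 with top-ranked peaks, 5.46 with any parent peak and 7.16 with the 66% overlap, and between 4.72 and 6.34 with a replicate left out. In the same order the LCL D share was 20.96%, 44.5%, 10.5% and 41.7%, and between 10.6% and 44.5% with a replicate left out. The CTCF match share was 10.01%, 13.3%, 9.15% and 15.9%, 10.7% where a parent site within 1 kb counts as bound, 8.29% within 25 bp and 6.70% within 250 bp, and between 8.01% and 9.67% with a replicate left out. The RAD21 share was 0.0884% and 0.906% with either LCL ID replicate left out. Called genes in U versus D were 24 without the filter on low values and between 19 and 39 with a library left out. In I versus ID they were between 73 and 106 and in U versus I between 108 and 149. The deviations of same-numbered libraries correlated by -0.02, 0.00 and 0.00, so the numbers do not pair the samples, and with the replicate block the counts were 40, 103 and 144. Of 232 values of the 15 named called genes under alternatives 210 were still called and 22 were not, none of them reversed. Of these 15 genes 7 were called under every alternative. TMM scaling moved the median of all genes by at most -0.03 (log2). The causes were not tested. ChIP depth is unknown, and its part in the number of weak sites was not tested.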

Other observations

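The called genes were also measured in the other lines, in the same table of normalized counts, and entered no test there. Tspan6 was lower in I than in U in each line: 257 to 280 in U and 47.4 to 48.6 in I of the CTCF line, 211 to 254 and 37.3 to 73.3 in the CTCFL line, and 208 to 228 and 24.8 to 27.7 in the CLC line. In ID it was 150 to 200 with CTCF, 242 to 323 with CTCFL and 72.9 to 97.8 with CLC. Cdh2 was 18.2 to 29.3 in I and 24.2 to 30.1 in ID of the CTCF line, and 8.98 to 18.7 and 12.01 to 14.1 in the CTCFL line, so that these ranges overlapped, while in the CLC line they were 10.6 to 11.6 and 20.3 to 32.8. Hpn was 389 to 412 in I and 478 to 540 in ID of the CTCF line, 440 to 593 and 441 to 541 in the CTCFL line, and 102 to 126 and 52.9 to 70.0 in the CLC line. Tdrd1 was 314 to 343 and 368 to 414 in I and ID of the CTCF line, 298 to 372 and 438 to 512 in the CTCFL line, and 305 to 322 and 120 to 140 in the CLC line. Moxd1 was 269 to 340 in U and 637 to 896 in D of the CTCFL line, and 224 to 267 and 290 to 331 in the CTCF line.

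Edges of chromatin domains lay within 40 kb of 20.05% of the sites by the Crane caller and of 21.1% by HiCratio in LCL ID, and of 20.5% and 23.8% in LCL D. In LCL ID the CTCF only sites stood at 19.9% and 19.6%, and the sites of both parents at 19.7% and 24.3%. Each list comes from 1 caller and has no replicate. By the growth protocol the Hi-C cells were treated for 4 days and the ChIP-seq cells for 2 days.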
